A study of Mus musculus with 12 samples.

Results

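The genes described are the nuclear-encoded subunits of the mitochondrial respiratory chain and of ATP synthase, with a few closely named factors, in mouse paw joints. They were chosen by name. Every protein-coding gene of the deposited count table was taken whose mouse symbol starts with Ndufa, Ndufb, Ndufc, Ndufs, Ndufv, Uqcr, Atp5, Cox4, Cox5, Cox6, Cox7 or Cox8, together with Sdha, Sdhb, Sdhc, Sdhd, Cyc1 and Cycs. This gave 95 genes of 52636 identifiers: 36 subunits of complex I, 8 complex I assembly factors, 4 subunits of complex II, 9 of complex III, cytochrome c, 20 genes of complex IV and 17 of ATP synthase. The Ndufa4 gene and its paralog Ndufa4l2 were placed with complex IV. RNA came from 3 groups of 4 mice, 1 animal per library. Anti-SIRPa mice received K/BxN serum, which carries antibodies that inflame joints, and the agonistic antibody 6F2 against SIRPa, an inhibitory receptor of myeloid cells. Control-antibody mice received the same serum and anti-gp120, a negative control antibody. Naive mice received anti-gp120 and no serum. Paws of the serum groups were taken 7 days after the transfer. The sources used here give no age, sex, strain or dose.

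Complex I (NADH dehydrogenase) and complex II (succinate dehydrogenase) feed electrons into the chain, complex III passes them to cytochrome c, and complex IV (cytochrome c oxidase) hands them to oxygen. ATP synthase uses the resulting proton gradient to make ATP. Most subunits are encoded in the nucleus and a core set in mitochondrial DNA, and striated muscle, which is rich in mitochondria, carries its own forms of several complex IV subunits.

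The values are deposited read counts per gene, scaled here to CPM, a gene's counts relative to the size of its library, with TMM factors. Total counts were 13791454 to 17597920 in anti-SIRPa libraries, 6893969 to 13416033 in control-antibody arthritis libraries and 14289363 to 16205593 in naive libraries. Control 2 was the shallowest library, and 3 counts, the floor used for a gene at 0, correspond to 0.171 to 0.435 CPM before TMM scaling. The labelled tissue is the joint of a whole paw. Lubricin (Prg4) stood at 5475 to 10160 CPM over the 12 libraries and the cartilage collagen Col2a1 at 7.03 to 35.2 CPM, while the osteoblast gene Bglap was at 0 to 1.64 CPM. Muscle RNA was abundant: 22 skeletal muscle genes took 17.2 to 27.7% of counts in anti-SIRPa joints, 15.9 to 27.3% in control-antibody arthritis joints and 22.6 to 31.8% in naive joints. Some libraries stand apart. In controls 2 and 4, 1975 odorant, vomeronasal and taste receptor genes summed to 528 and 227 CPM, against 10.1 to 29.5 CPM elsewhere. Anti-SIRPa 2 and naive 4 were low in epidermal RNA, at 4.83 and 5.06 CPM summed over 8 genes, where the other libraries had 252 to 17830 CPM. Control 1 lay within the naive range for the mean of the genes described here.

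Genes of each of the 5 complexes were called lower in control-antibody arthritis joints than in naive joints. Single genes of complexes I, III and IV were called higher with anti-SIRPa than with the control antibody. Of the 95 genes 90 passed the filter on low counts and were tested among 16674 genes with the edgeR quasi-likelihood test, and a gene was called at a Benjamini-Hochberg adjusted p under 0.05. Between control-antibody arthritis and naive joints 31 of the 90 were called lower, or 34.4%, where 4.45% of all tested genes were. A single gene, Cox7c, was called higher, where 5.87% of all genes were. The median log2 fold change was -0.54 over the 90 genes and 0.03 over all tested genes, and 81 of the 90 lay below 0, as did 47.4% of all genes. In 27 of the 90 genes (30%) the 4 arthritic mice were all below the 4 naive mice, which held for 6.47% of all genes, and in 1 they were all above, as for 6.02% of all genes. Between anti-SIRPa and control-antibody arthritis joints 5 of the 90 were called higher, where 1.59% of all genes were, and 0 were called lower, where 1.7% were (DESeq2 called 1 lower, and 51 of the 90 had an unadjusted edgeR p under 0.05 in either direction, as did 24.4% of all genes). Their median was 0.47, and that of all genes -0.03. The groups did not overlap in 17 genes that were higher with anti-SIRPa, against 5.18% of all genes, and in 1 that was lower, against 4.82%. Both comparisons use the same 4 control-antibody mice, so their values are given side by side and neither is a check of the other.

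**Figure D1:**
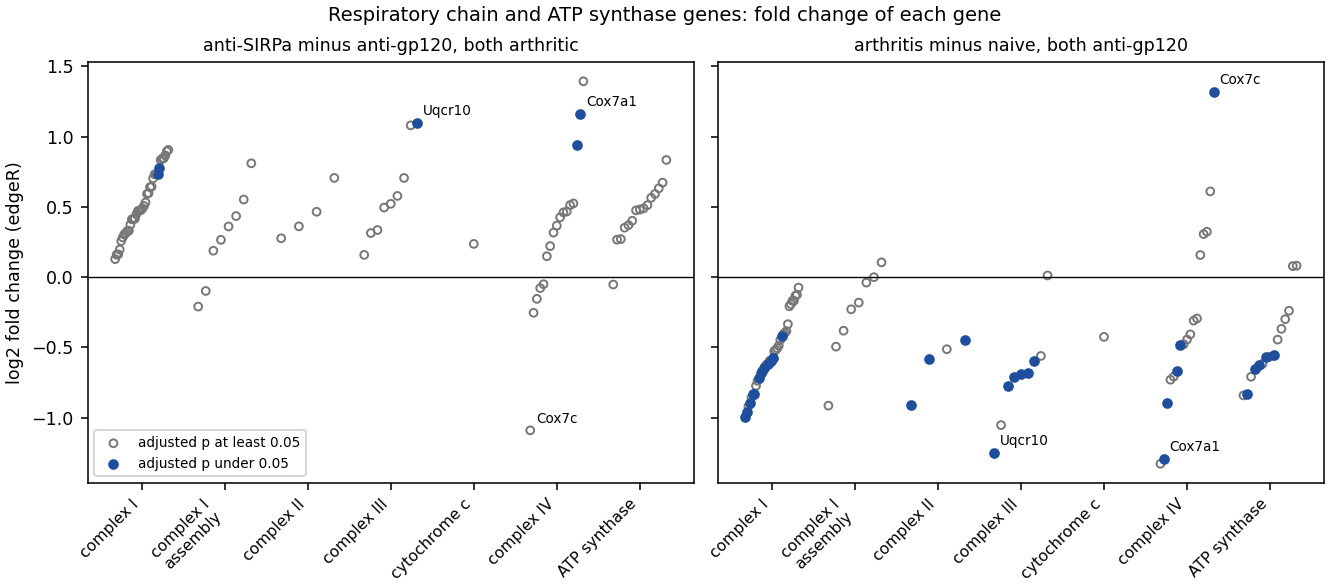
Log2 fold change of each tested gene by complex, from the edgeR fit, for anti-SIRPa minus control-antibody arthritis joints (left) and control-antibody arthritis minus naive joints (right). Each circle is a gene, ordered by value within its complex, and filled circles have an adjusted p under 0.05. On the right 31 filled circles lie below 0 and Cox7c above it, and on the left 5 filled circles lie above 0.

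These counts rest on few mice. With each mouse left out in turn, the number of genes called lower in control-antibody arthritis ranged from 3 to 60. It was 60 without control 1, 11 without control 2, 3 without control 3, 9 without control 4, and 18, 10, 16 and 3 without naive mice 1, 2, 3 and 4. The number called higher with anti-SIRPa ranged from 0 to 62, and the 62 came from leaving out control 1. It was 0 when control 2, 3 or 4, naive mouse 1 or 2, or anti-SIRPa mouse 1, 2 or 3 was left out, 1 without naive 3, 4 without anti-SIRPa 4 and 5 without naive 4. Without controls 2 and 4 no gene was called in either comparison, and the medians were -0.40 and 0.34. Without naive 4 and anti-SIRPa 2, 1 gene was called lower in control-antibody arthritis and 0 were called higher with anti-SIRPa, at medians of -0.48 and 0.48. Both of these omissions were chosen after the data had been seen.

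The level of these genes moved with that of muscle genes from mouse to mouse. The mean log2 CPM over the 90 genes was 5.33, 5.29, 5.36 and 5.20 in anti-SIRPa mice 1 to 4, 5.26, 4.43, 4.61 and 4.85 in control-antibody arthritis mice 1 to 4, and 5.22, 5.33, 5.28 and 5.45 in naive mice 1 to 4. Over the 22 skeletal muscle genes it was 11.94, 12.03, 12.09 and 11.45 in anti-SIRPa mice, 12.13, 10.81, 11.03 and 11.57 in control-antibody arthritis mice and 11.81, 11.94, 11.93 and 12.35 in naive mice. Controls 2, 3 and 4 were thus the lowest of the 12 libraries for the respiratory chain genes, while control 1 lay among the naive mice for both gene groups. Anti-SIRPa 4 was below the other anti-SIRPa and the naive mice for both. The difference between the means of the respiratory chain genes and the muscle genes was -6.74 to -6.25 in anti-SIRPa mice, -6.87 to -6.38 in control-antibody arthritis mice and -6.90 to -6.59 in naive mice, so that on this scale the groups overlapped. With the muscle list mean as a covariate, 5 genes were called lower in control-antibody arthritis, at a median of -0.24, and 6 higher with anti-SIRPa, at 0.25. None of the 22 muscle genes was at 0 counts in any library. In a bulk sample, fewer cells of a type and less of an RNA per cell cannot be told apart, and the part of muscle content in the results that follow was not tested further.

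**Figure D2:**
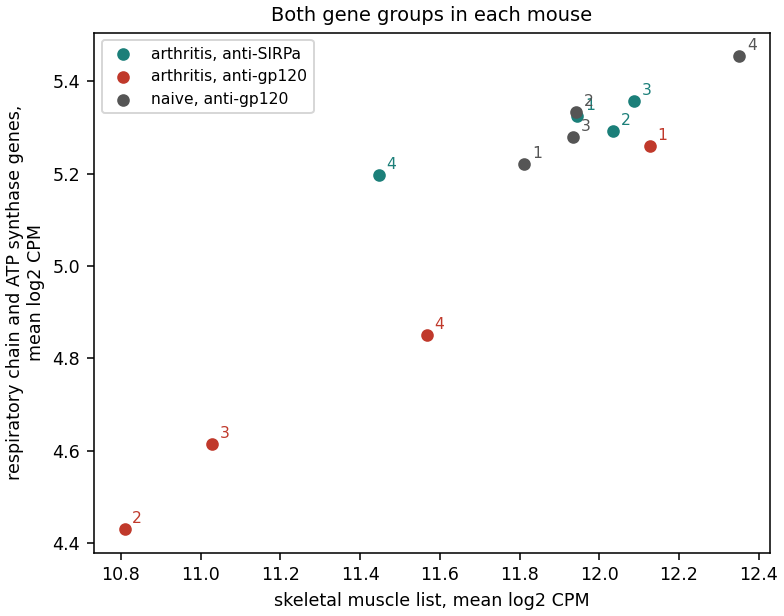
Mean log2 CPM of the 90 respiratory chain and ATP synthase genes (vertical) against that of 22 skeletal muscle genes (horizontal). Each point is a mouse, numbered within its group. Controls 2, 3 and 4 lie at 4.43, 4.61 and 4.85 on the vertical axis, and control 1 at 5.26, among the other 8 mice, which lie between 5.20 and 5.45.

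Complex III, which moves electrons from ubiquinol to cytochrome c, had the lowest median of the complexes with more than 1 tested gene, -0.69 in control-antibody arthritis against naive joints. Of its 9 genes 6 fell, and 8 of 9 were below 0. Uqcr10, a small subunit, changed most. It stood at 43.9, 46.3, 66.3 and 43.7 CPM in anti-SIRPa mice 1 to 4, at 34.6, 13.5, 20.4 and 24.7 CPM in control-antibody arthritis mice and at 53.99, 54.8, 47.7 and 66.4 CPM in naive mice. All 4 control-antibody mice lay below all naive and all anti-SIRPa mice. Uqcr10 fell by 1.25 ± 0.24 on the log2 scale in control-antibody arthritis against naive joints (SE, adjusted p = 0.0108) and rose with anti-SIRPa against the control antibody by 1.10 ± 0.24 (adjusted p = 0.0338). The first of these calls held with any single mouse left out, at adjusted p values up to 0.0434, while the second held in 3 of 12 omissions, with adjusted p values up to 0.113.

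Cyc1, the cytochrome c1 subunit that reduces cytochrome c, measured 104, 104, 95.1 and 91.5 CPM in anti-SIRPa mice, 91.9, 62.00, 60.5 and 66.1 CPM in control-antibody arthritis mice and 98.6, 115, 111 and 128 CPM in naive mice. The control-antibody mice again lay below all naive mice, and control 1 was just above the lowest anti-SIRPa mouse. The log2 fold change of Cyc1 was -0.69 ± 0.14 in control-antibody arthritis against naive joints (adjusted p = 0.0127, up to 0.0477 with a mouse left out) and 0.49 ± 0.14 with anti-SIRPa against the control antibody, which did not pass the test (adjusted p = 0.0621). The core protein gene Uqcrc1 averaged 204 ± 9.30 CPM with anti-SIRPa, 142 ± 38.5 CPM with the control antibody and 233 ± 17.02 CPM in naive joints (SD, n = 4 each), and fell in control-antibody arthritis (log2 -0.71, adjusted p = 0.0183). The other called genes of complex III, given because they were called, were Uqcrc2 at -0.77, Uqcr11 at -0.69 and Uqcrq at -0.60, the last with an adjusted p up to 0.0888 with a mouse left out. Uqcrh, the hinge subunit that docks cytochrome c1, was at 0.01 ± 0.12 (adjusted p = 0.964), with 50.98 ± 7.63 CPM in control-antibody arthritis and 50.6 ± 4.88 CPM in naive joints. The Rieske iron-sulfur gene Uqcrfs1 and the small subunit gene Uqcrb did not pass, at -0.56 and -1.05.

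Complex I is the largest complex. All 36 of its subunit genes were below 0 in control-antibody arthritis against naive joints, at a median of -0.58 and a range of -0.996 to -0.07, and 13 of them fell. With anti-SIRPa against the control antibody all 36 were above 0, at a median of 0.48, and 2 of them rose. Among the 7 core subunits, which are conserved from bacteria, 4 fell in control-antibody arthritis, at a median of -0.57, and among the 29 accessory subunits 9 fell, at -0.59.

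Ndufb5, an accessory subunit of the membrane arm, had the smallest p of the complex in both comparisons. It stood at 71.5, 69.4, 56.96 and 59.7 CPM in anti-SIRPa mice, 50.2, 29.3, 31.3 and 43.5 CPM in control-antibody arthritis mice and 69.6, 69.1, 71.8 and 76.7 CPM in naive mice. The control-antibody mice lay below every mouse of the other groups. Ndufb5 fell by 0.89 ± 0.16 on the log2 scale in control-antibody arthritis (adjusted p = 0.00883) and rose by 0.74 ± 0.16 with anti-SIRPa against the control antibody (adjusted p = 0.0331). The first call held with any mouse left out (adjusted p up to 0.0341), and the second in 3 of 12 omissions (up to 0.106).

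Ndufv2, an iron-sulfur subunit of the module that oxidises NADH, was the other complex I gene that rose. Its values were 119, 109.6, 112 and 97.8 CPM in anti-SIRPa mice, 95.3, 40.9, 53.6 and 66.3 CPM in control-antibody arthritis mice and 109, 119, 107 and 120.33 CPM in naive mice. Control 2 was lowest and control 1, the highest of its group, was still below the lowest mouse of either other group. The log2 fold change of Ndufv2 was -0.83 ± 0.20 in control-antibody arthritis against naive joints (adjusted p = 0.0217, up to 0.0743 with a mouse left out) and 0.78 ± 0.20 with anti-SIRPa against the control antibody (adjusted p = 0.0481, held in 1 of 12 omissions of a mouse). Its partners in the same module, Ndufv1, which binds NADH, and Ndufs1, the largest iron-sulfur subunit, fell in control-antibody arthritis at -0.67 and -0.57 (adjusted p = 0.0265 and 0.0350, the second up to 0.108 with a mouse left out). With anti-SIRPa against the control antibody they were at 0.45 and 0.33 without passing (adjusted p = 0.125 and 0.210). The fourth core gene that fell was Ndufs8, an iron-sulfur subunit near the ubiquinone site, at -0.65.

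Of the accessory subunits, the lowest was Ndufa11 at -0.996 ± 0.24, with 34.2 ± 2.19 CPM in anti-SIRPa joints, 18.97 ± 7.72 CPM in control-antibody arthritis joints and 38.05 ± 5.42 CPM in naive joints (SD, n = 4 each). The smallest change that was called was that of Ndufa8, -0.42 ± 0.10, whose 4 control-antibody values of 48.1, 42.3, 40.8 and 41.8 CPM were close together and below the naive values of 49.98, 61.5, 59.5 and 60.2 CPM. Ndufb8 fell by 0.72 ± 0.16 on the log2 scale (adjusted p = 0.0183, up to 0.0645 with a mouse left out). The remaining called accessory genes, named because they were called, were Ndufb3 (-0.96), Ndufb9 (-0.83), Ndufa10 (-0.68), Ndufb10 (-0.62) and Ndufa9 (-0.59).

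The 8 complex I assembly factors of the Ndufaf series, which build the complex and are not part of it, were not called in either comparison, and their median log2 fold change was -0.21 in control-antibody arthritis against naive joints and 0.31 with anti-SIRPa against the control antibody. Ndufaf4 stood at 28.3, 24.99, 22.5 and 23.3 CPM in anti-SIRPa mice, 18.5, 17.1, 17.1 and 20.5 CPM in control-antibody arthritis mice and 19.7, 19.1, 23.3 and 23.8 CPM in naive mice. All anti-SIRPa values were above all control-antibody values, and its log2 difference there was 0.43 ± 0.13 (adjusted p = 0.0666). Whether the assembly factors changed less than the subunits was not tested.

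Complex II is the only complex encoded wholly in the nucleus, and links the citric acid cycle to the chain. Of its 4 genes, 3 fell in control-antibody arthritis. Sdhb, the iron-sulfur subunit, stood at 103, 103, 112 and 92.5 CPM in anti-SIRPa mice, 94.5, 40.2, 53.5 and 63.1 CPM in control-antibody arthritis mice and 115, 125, 103 and 129.5 CPM in naive mice. Its control-antibody values were all below the naive ones, and control 1 alone overlapped the anti-SIRPa range. The log2 fold change of Sdhb was -0.91 ± 0.20 against naive joints (adjusted p = 0.0176, up to 0.0637 with a mouse left out). The membrane anchors Sdhd and Sdhc fell as well, at -0.58 ± 0.13 and -0.44 ± 0.13 (adjusted p = 0.0204 and 0.0496, up to 0.0695 and 0.136 with a mouse left out). Sdha, the flavoprotein that oxidises succinate, did not pass, at -0.51 ± 0.17 (adjusted p = 0.0741): its values were 339.8, 183, 214 and 233 CPM in control-antibody arthritis mice and 319.6, 345, 344 and 376 CPM in naive mice, so that control 1 lay inside the naive range. In anti-SIRPa joints against the control antibody the 4 genes were at 0.28 to 0.71, and none passed.

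Complex IV had the widest range of values of the complexes. Of its 17 tested genes 4 fell and 1 rose in control-antibody arthritis against naive joints, over a range of -1.33 to 1.32 and at a median of -0.44, and 5 of the 17 lay above 0. With anti-SIRPa against the control antibody 2 rose, Cox7a1 and Cox7a2. In the mouse 3 small subunits exist in a muscle form and a ubiquitous form, and the pairs are Cox6a2 and Cox6a1, Cox7a1 and Cox7a2, and Cox8b and Cox8a. Per kb of exon, the muscle forms Cox8b, Cox6a2 and Cox7a1 stood at 300.5, 237 and 106 CPM per kb in naive joints, and the ubiquitous forms Cox8a, Cox7a2 and Cox6a1 at 48.8, 27.2 and 15.3 CPM per kb.

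Both genes of the Cox7a pair were called in both comparisons. Cox7a1, the muscle form, stood at 47.3, 51.4, 59.3 and 49.1 CPM in anti-SIRPa mice, 36.97, 10.4, 19.5 and 25.1 CPM in control-antibody arthritis mice and 49.4, 56.9, 49.00 and 71.4 CPM in naive mice. Cox7a2, the ubiquitous form, stood at 24.9, 26.5, 30.8 and 24.1 CPM in anti-SIRPa mice, 19.6, 10.1, 10.4 and 15.02 CPM in control-antibody arthritis mice and 24.5, 28.3, 20.8 and 29.2 CPM in naive mice. For both genes each control-antibody mouse was below every mouse of the other 2 groups. Cox7a1 fell by 1.29 ± 0.29 on the log2 scale in control-antibody arthritis against naive joints (adjusted p = 0.0192, up to 0.0689 with a mouse left out) and rose by 1.16 ± 0.28 with anti-SIRPa against the control antibody (adjusted p = 0.0478, up to 0.144). Cox7a2 fell by 0.89 ± 0.20 (adjusted p = 0.0182, up to 0.0632) and rose by 0.94 ± 0.20 (adjusted p = 0.0328, up to 0.105). The ratio of Cox7a1 to Cox7a2 counts was 1.90, 1.94, 1.92 and 2.04 in anti-SIRPa mice, 1.88, 1.03, 1.87 and 1.67 in control-antibody arthritis mice and 2.01, 2.01, 2.35 and 2.44 in naive mice. The control-antibody ratios were all below those of the other groups. The mean log2 difference was -0.49 in control-antibody arthritis against naive joints (exact two-sided permutation test, p = 0.0286, the smallest that 4 against 4 can give, adjusted over 9 ratio tests p = 0.129) and 0.32 with anti-SIRPa against the control antibody (exact permutation p = 0.0286, adjusted p = 0.129). Neither passed after adjustment, which over 9 tests they could not do alone even at this smallest p. Both differences rested in part on control 2, without which they were -0.28 and 0.11.

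In the other pairs no gene was called. Cox6a2, the muscle form, stood at 133, 146, 165 and 111 CPM in anti-SIRPa mice, 161, 60.8, 67.8 and 99.4 CPM in control-antibody arthritis mice and 143, 159.7, 156 and 187 CPM in naive mice. Its log2 fold change in control-antibody arthritis was -0.73 ± 0.25 (adjusted p = 0.0822), with control 1 inside the naive range and the other controls below it. Cox6a1, the ubiquitous form, stood at 11.2, 8.24, 8.45 and 16.5 CPM in anti-SIRPa mice, 8.77, 15.2, 18.7 and 10.5 CPM in control-antibody arthritis mice and 13.6, 9.83, 9.07 and 10.3 CPM in naive mice, and was at 0.31 ± 0.27 (adjusted p = 0.486). There the order of mice was turned round: controls 2 and 3, the lowest for Cox6a2, were the highest of their group for Cox6a1, and so was anti-SIRPa 4 among its group. The ratio of Cox6a2 to Cox6a1 counts was 11.8, 17.7, 19.4 and 6.71 in anti-SIRPa mice, 18.2, 3.98, 3.63 and 9.47 in control-antibody arthritis mice and 10.5, 16.2, 17.1 and 17.97 in naive mice. Its log2 difference in control-antibody arthritis against naive joints was -1.10 (exact permutation p = 0.171, adjusted p = 0.343), and the groups overlapped.

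Cox8b, the muscle form, averaged 103 ± 22.5 CPM in anti-SIRPa joints, 88.2 ± 25.5 CPM in control-antibody arthritis joints and 108 ± 11.5 CPM in naive joints (SD, n = 4 each). Cox8a, the ubiquitous form, averaged 32.6 ± 3.57 CPM in anti-SIRPa joints, 33.7 ± 4.22 CPM in control-antibody arthritis joints and 30.2 ± 1.51 CPM in naive joints. In control-antibody arthritis against naive joints they were at -0.29 ± 0.20 and 0.16 ± 0.12 (adjusted p = 0.347 and 0.406). The log2 ratio of Cox8b to Cox8a differed by -0.48 (exact permutation p = 0.2, adjusted p = 0.343), by -0.75 without control 1 and by -0.34 without control 2. Controls 2 and 3 had the lowest ratios, 1.89 and 1.93, with anti-SIRPa 4 at 1.98, where the naive mice had 3.06 to 4.18.

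**Figure D3:**
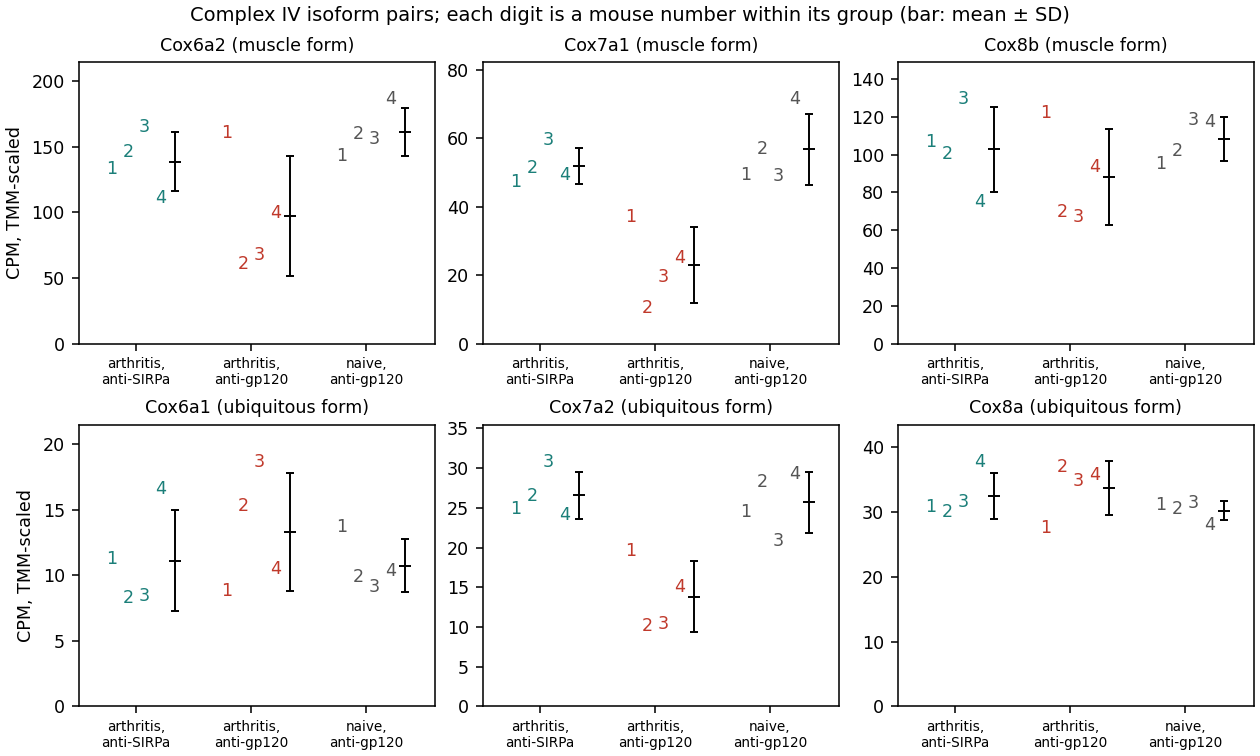
CPM of the muscle form (top) and the ubiquitous form (bottom) of 3 complex IV subunits, with each digit standing for a mouse of its group and bars for the mean ± SD (n = 4). Both Cox7a genes are lowest in control-antibody arthritis joints, at 23.0 and 13.8 CPM on average, while Cox6a1 averages 13.3 CPM there and 10.7 CPM in naive joints.

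The promoter sequences of 4 genes are shown because their levels divided: Cox7a1 and Cox7a2 fell together in control-antibody arthritis, Cox6a1 did not fall, and Atp5g3, a gene of ATP synthase described below, fell. Each is the 250 bases before the RefSeq start on build GRCm38.p6, written 5′ to 3′ on the strand of the gene. Capitals mark the letters of motifs known from respiratory chain promoters, searched on both strands: GCGCA and GCGC with any base between them of NRF1, CCGGAAG of the ETS factor GABP, AAGATGG of YY1 and AAGGTCA of the ERR receptors. The windows are chr7:30183921-30184170 on the plus strand, and chr9:79759854-79760103, chr5:115348959-115349208 and chr2:73911327-73911576 on the minus strand.
Cox7a1: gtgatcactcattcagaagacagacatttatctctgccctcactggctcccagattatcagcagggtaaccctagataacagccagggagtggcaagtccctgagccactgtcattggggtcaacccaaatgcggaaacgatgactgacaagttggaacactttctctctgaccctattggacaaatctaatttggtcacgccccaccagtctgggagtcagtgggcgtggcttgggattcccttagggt
Cox7a2: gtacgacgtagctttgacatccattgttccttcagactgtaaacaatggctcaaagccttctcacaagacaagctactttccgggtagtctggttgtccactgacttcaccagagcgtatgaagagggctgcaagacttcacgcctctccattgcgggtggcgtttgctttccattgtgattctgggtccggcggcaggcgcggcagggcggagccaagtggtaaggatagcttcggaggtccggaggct
Cox6a1: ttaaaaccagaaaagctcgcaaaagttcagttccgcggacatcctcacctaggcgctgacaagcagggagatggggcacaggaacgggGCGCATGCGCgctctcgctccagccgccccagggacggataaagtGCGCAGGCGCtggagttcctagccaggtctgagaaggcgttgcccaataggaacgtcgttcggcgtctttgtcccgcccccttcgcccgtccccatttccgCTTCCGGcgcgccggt
Atp5g3: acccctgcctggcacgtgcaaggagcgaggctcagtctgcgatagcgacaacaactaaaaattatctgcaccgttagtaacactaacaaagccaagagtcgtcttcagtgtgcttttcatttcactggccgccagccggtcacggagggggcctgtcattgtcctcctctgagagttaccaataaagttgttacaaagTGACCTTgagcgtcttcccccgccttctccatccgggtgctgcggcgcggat
Cox6a1 holds the NRF1 letters at 162 and 117 bases and the ETS letters at 16 bases before its start, and Atp5g3 holds the ERR letters at 52 bases. Atp5g3 also holds the NRF1 letters in the window extended by 50 bases past the start, outside the stretch printed. Neither Cox7a window holds any of the 4 motifs. RefSeq promoters were matched for 75 of the 95 genes. In windows of 300 bases, including 50 after the start, the NRF1 letters were in 25.3% of these 75 genes and in 7.09% of 17410 other protein-coding genes, the ETS letters in 24.0% of the 75 and 12.9% of the others, the YY1 letters in 14.7% and 7.15%, and the ERR letters in 10.7% and 4.71%. The E-box CANNTG, searched beside them, was in 72.0% of the 75 and 72.1% of the others. Genes that fell in control-antibody arthritis were set beside genes not called, which include the untested Atp5g2, Atp5l, Cox6b2 and Cox7b2. The shares were 25% of 24 and 26% of 50 for NRF1, 20.8% and 26% for ETS, 8.33% and 16% for YY1, and 8.33% and 12% for ERR.

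Among the other genes of complex IV, Cox7b had the lowest log2 fold change of all 90 genes, -1.33 ± 0.44, without passing the test (adjusted p = 0.0788). It stood at 68.3, 85.8, 103 and 73.6 CPM in anti-SIRPa mice, 59.7, 8.67, 25.2 and 31.5 CPM in control-antibody arthritis mice and 82.4, 83.1, 52.2 and 97.9 CPM in naive mice, and the spread within the control-antibody group, with control 2 lowest and control 1 above naive 3, was wide. With anti-SIRPa against the control antibody Cox7b was also the highest of the 90, at 1.39 ± 0.44 (adjusted p = 0.0945). Cox5a and Cox6b1, subunits without a muscle form, fell at -0.67 ± 0.15 and -0.48 ± 0.13 (adjusted p = 0.0173 and 0.0364, up to 0.0598 and 0.0945 with a mouse left out).

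Cox4i1, the common form of the largest nuclear subunit, was at -0.31 ± 0.13 (adjusted p = 0.131), with 243 ± 17.7 CPM in anti-SIRPa joints, 219.6 ± 35.5 CPM in control-antibody arthritis joints and 272 ± 21.2 CPM in naive joints. Its lung form Cox4i2 was low in all groups, with 1.41 ± 0.220 CPM in anti-SIRPa joints, 1.11 ± 0.486 CPM in control-antibody arthritis joints and 1.85 ± 0.946 CPM in naive joints. Ndufa4, known from complex I preparations and now placed in complex IV, was at -0.41 ± 0.19 and did not pass. Its paralog Ndufa4l2, a gene induced by low oxygen, stood at 11.5, 7.34, 9.38 and 19.99 CPM in anti-SIRPa mice, 8.52, 19.3, 11.3 and 14.8 CPM in control-antibody arthritis mice and 10.3, 8.43, 10.1 and 6.28 CPM in naive mice, and did not pass either, at 0.61 ± 0.31 (adjusted p = 0.221). Cox7a2l, which joins complexes III and IV into supercomplexes, was at 0.32 ± 0.12 (adjusted p = 0.105).

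ATP synthase consists of the catalytic F1 head and the proton channel F0. Of its 15 tested genes 5 fell in control-antibody arthritis, 13 were below 0, and the median was -0.57. Of the 5 genes of the F1 head 4 fell: Atp5a1 (alpha) at -0.62 ± 0.18, Atp5b (beta) at -0.57 ± 0.17, Atp5c1 (gamma) at -0.83 ± 0.22 and Atp5d (delta) at -0.56 ± 0.12 (adjusted p = 0.0445, 0.0485, 0.0338 and 0.0166). Atp5e (epsilon) was at -0.45 without passing. For Atp5a1 and Atp5b control 1 lay inside the naive range. The F1 median was -0.57, as over all 15 genes. Outside the head, Atp5j2 at -0.84, Atp5j at -0.71, Atp5o at -0.62 and Atp5f1 at -0.57 missed the threshold narrowly (adjusted p = 0.0539, 0.0633, 0.0526 and 0.0566). Atp5mpl, Atp5k and Atp5h were at -0.37, -0.24 and 0.08. Atp5a1 was the most abundant of the 95 genes per kb of exon, at 367 CPM per kb in anti-SIRPa joints, 284 CPM per kb in control-antibody arthritis joints and 437 CPM per kb in naive joints. Atp5d had the smallest p, up to 0.0598 after adjustment with a mouse left out. It stood at 141, 140.3, 128 and 131 CPM in anti-SIRPa mice, 136, 107, 97.3 and 109 CPM in control-antibody arthritis mice and 158, 158, 154 and 191 CPM in naive mice, and the control-antibody mice lay below all naive mice and overlapped the anti-SIRPa range through control 1.

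The c subunit, which forms the rotating ring of F0, is made from 3 genes that give the same mature protein. Atp5g3 stood at 95.1, 87.3, 82.1 and 72.6 CPM in anti-SIRPa mice, 76.8, 46.9, 50.2 and 62.2 CPM in control-antibody arthritis mice and 83.7, 93.98, 99.3 and 94.7 CPM in naive mice. Its control-antibody values were all below the naive ones, and control 1 lay above the lowest anti-SIRPa mouse. Atp5g3 fell at -0.65 ± 0.15 in control-antibody arthritis (adjusted p = 0.0192, up to 0.0664 with a mouse left out). Atp5g1 averaged 5.34 ± 0.899 CPM in anti-SIRPa joints, 3.86 ± 1.70 CPM in control-antibody arthritis joints and 4.73 ± 1.51 CPM in naive joints and did not pass (-0.30). Atp5g2 was not tested, with 0 to 2 counts in every library. In anti-SIRPa against control-antibody joints 14 of the 15 genes of ATP synthase were above 0, at a median of 0.48, and none passed.

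**Figure D4:**
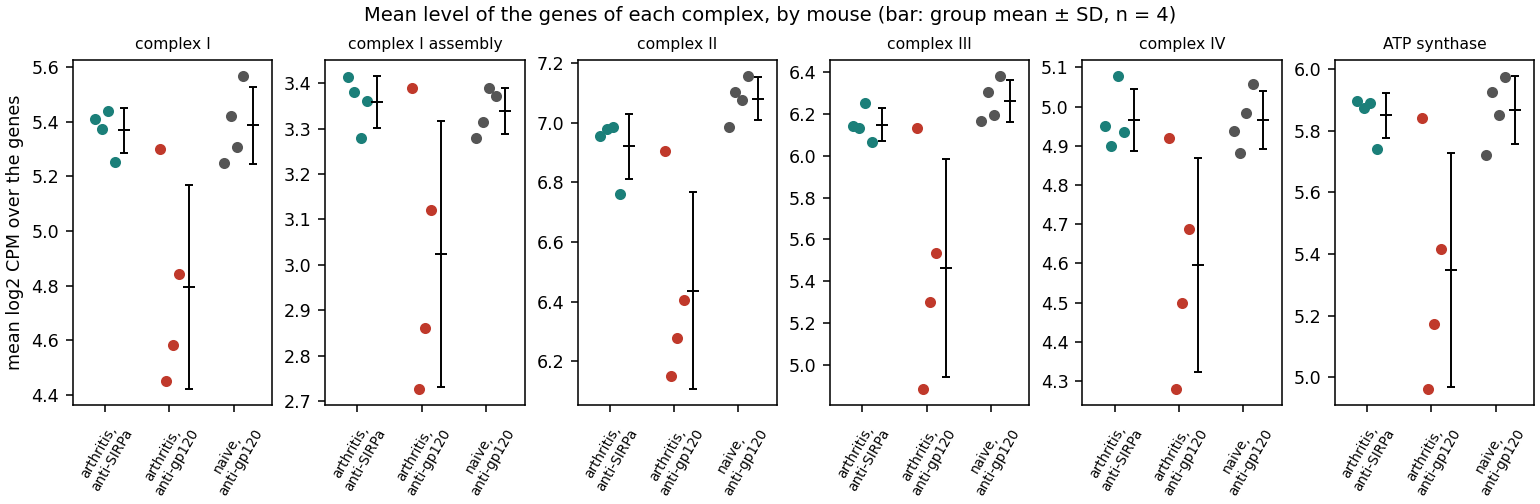
Mean log2 CPM over the tested genes of each complex in each mouse, with the group mean ± SD (n = 4). Each panel has its own vertical range, which does not start at 0. In every panel controls 2, 3 and 4 are the 3 lowest mice, and control 1 lies within the range of the naive and anti-SIRPa mice.

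Some genes had few reads although they encode constant parts of a complex, and their coding sequence occurs elsewhere in the genome. Each coding sequence was divided into overlapping windows of 50 bases, and a window counted as shared when the same letters occur in a GENCODE M21 transcript of another gene. In 43 of the 95 genes some windows were shared and in 16 more than 50% of them. In 7 genes at least 99% were shared: cytochrome c (Cycs), Cox7c, Ndufb4, Ndufab1, Atp5g1, Atp5g2 and Atp5l. Their naive level was 0 to 1.23 CPM per kb of exon, with a median of 0.70, and the median of the other 88 genes was 34.2. How the authors' counting treated reads that match several genes is not given in the sources used here, so these levels are uncertain and are no measure of the true RNA level.

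**Figure D5:**
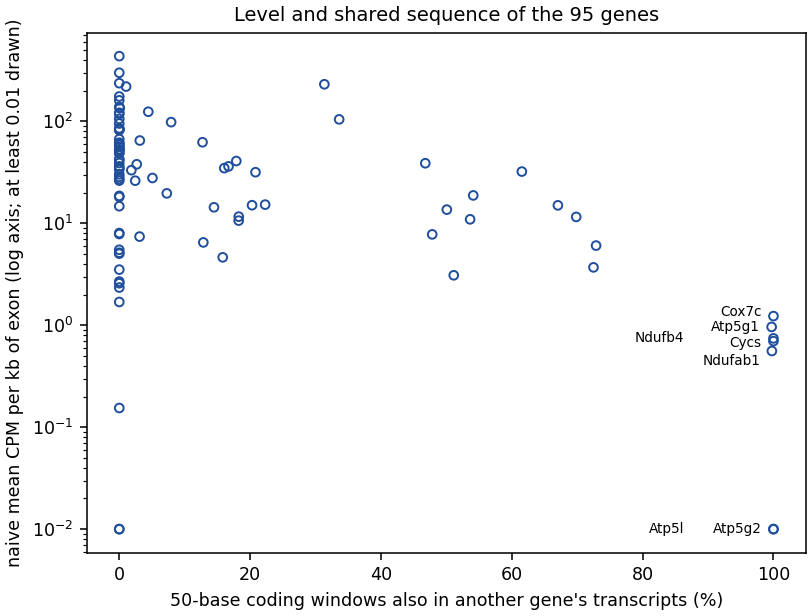
Naive mean CPM per kb of exon (vertical, log axis, values under 0.01 drawn at 0.01) against the percent of 50-base coding windows that also occur in a transcript of another gene (horizontal). Each circle is 1 of the 95 genes. The 7 named genes with at least 99% of windows shared lie at 1.23 CPM per kb or below, where the median of the other 88 is 34.2.

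Cox7c, the gene called higher in control-antibody arthritis, is one of these. All of its windows are shared, with 3 pseudogenes. Its raw counts were 23, 28, 24 and 29 in anti-SIRPa mice, 25, 30, 64 and 43 in control-antibody arthritis mice and 20, 14, 25 and 21 in naive mice. In CPM the 4 control-antibody mice, at 2.07, 3.94, 4.83 and 3.10, were above all naive mice, at 1.22, 0.983, 1.76 and 1.61, and above all anti-SIRPa mice, at 1.35, 1.80, 1.73 and 1.64. The log2 fold change of Cox7c was 1.32 ± 0.32 in control-antibody arthritis against naive joints (adjusted p = 0.0245, held in 6 of 12 omissions of a mouse) and -1.09 ± 0.32 with anti-SIRPa against the control antibody (adjusted p = 0.0681). Among the 14 tested genes with more than 50% of windows shared none was called lower, and among the 76 other tested genes 31 were. Yet 11 of the 14 lay below 0 in that comparison, at a median of -0.42, and 70 of the 76, at -0.57. Whether the 2 sets differed was not tested. Cytochrome c (Cycs), the mobile electron carrier, had 16 to 47 counts in anti-SIRPa mice, 14 to 28 in control-antibody arthritis mice and 18 to 45 in naive mice, shares all its windows with 11 genes, 10 of them pseudogenes, and was at -0.43 ± 0.40 (adjusted p = 0.515). The genes that did not pass the filter on low counts were Atp5g2 and Atp5l, which share all windows, and the testis forms Cox6b2, Cox7b2 and Cox8c, which share none. Cox8c had no count in any library, which allows up to 0.435 CPM before TMM scaling in the shallowest. Cox6b2 had 0 to 11 counts and Cox7b2 0 to 7.

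Between anti-SIRPa and naive joints no respiratory chain gene was called in either direction, as was none of the 16674 tested genes (0% each way, edgeR). At an unadjusted p under 0.05 there were 675 genes (4.05%), 2 of them among the 90, and DESeq2 called 2 genes lower and 18 higher in all, 0 of them among the 90. The median log2 fold change was -0.06 over the 90 genes and -0.01 over all genes, and 56 of the 90 were below 0, as were 51.0% of all genes. In 6 genes the anti-SIRPa mice were all below the naive mice, where 1.85% of all genes were, and in 1 all above, where 3.04% were. By complex, the medians were -0.05 for complex I, -0.16 for complex II, -0.15 for complex III, -0.01 for complex IV and -0.08 for ATP synthase. The highest of the 90 was Atp5s, a factor associated with ATP synthase, with 5.50 ± 0.928 CPM in anti-SIRPa joints and 3.45 ± 0.622 CPM in naive joints (0.67 ± 0.30), and the lowest was Cox4i2 (-0.39 ± 0.43). A missed threshold with 4 mice per group does not show that the levels are alike.

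The 13 subunits encoded in mitochondrial DNA belong to the same complexes. Their median log2 fold change was -0.55 in control-antibody arthritis against naive joints and 0.50 with anti-SIRPa against the control antibody, near the medians of the nuclear genes, and none of the 13 was called in either comparison. Some of the 13 had few reads. In naive joints mt-Nd3, mt-Nd4l and mt-Atp8 averaged 0.459, 1.19 and 1.49 CPM, and mt-Co3, mt-Co2 and mt-Atp6 7.39, 8.64 and 10.5 CPM, where mt-Cytb averaged 3716 CPM. How reads that match several genes were counted is not known, so the levels of these low genes, which enter the medians, are uncertain. mt-Nd5, a proton-pumping subunit of complex I, averaged 1617 ± 355 CPM in anti-SIRPa joints, 919.6 ± 428 CPM in control-antibody arthritis joints and 1825 ± 457 CPM in naive joints, at -0.99 ± 0.32 against naive (adjusted p = 0.0621). mt-Nd6, the one subunit gene on the other strand of mitochondrial DNA, ran against that median in both comparisons without passing. It stood at 176, 189.5, 168 and 140.2 CPM in anti-SIRPa mice, 211, 336, 278 and 264 CPM in control-antibody arthritis mice and 169, 195, 278 and 177 CPM in naive mice, at 0.41 ± 0.18 in control-antibody arthritis against naive joints (adjusted p = 0.151) and -0.69 ± 0.18 with anti-SIRPa against the control antibody (adjusted p = 0.0512). All anti-SIRPa mice lay below all control-antibody mice. Without a known strand setting, reads from mt-Nd6 and from the transcripts opposite it cannot be told apart.

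Genes that build the chain or control its amount were also measured. Of 43 tested assembly factors of the complexes, 2 fell and 1 rose in control-antibody arthritis, at a median of -0.02, and 1 fell and 1 rose with anti-SIRPa against the control antibody. These counts are near or below the shares of all genes, 4.45% lower and 5.87% higher in the first comparison and 1.7% and 1.59% in the second, and are no result about assembly factors as a group. Cox10, an enzyme that makes heme for complex IV, averaged 26.9 ± 2.31 CPM in anti-SIRPa joints, 17.9 ± 2.51 CPM in control-antibody arthritis joints and 27.6 ± 0.752 CPM in naive joints, fell against naive (-0.62 ± 0.12, adjusted p = 0.0107) and rose with anti-SIRPa against the control antibody (0.59 ± 0.12, adjusted p = 0.0292). Timmdc1, a membrane factor of complex I assembly, did the reverse, at 0.51 ± 0.12 and -0.47 ± 0.12 (adjusted p = 0.0202 and 0.0460). Of 20 regulators of mitochondrial content 5 fell and 2 rose in control-antibody arthritis. The other 13 were not called, among them Nrf1 at -0.07, Gabpa at -0.23, Yy1 at 0.25, Esrra at -0.45 and Tfam at -0.12. The 2 that rose were Hif1a at 1.03 ± 0.28 and Polg at 0.38 ± 0.10 (adjusted p = 0.0401 and 0.0378). Ppargc1a, the coactivator PGC-1alpha, fell at -1.35 ± 0.29 and averaged 34.4 ± 7.12 CPM in anti-SIRPa joints, 20.9 ± 9.45 CPM in control-antibody arthritis joints and 53.2 ± 14.1 CPM in naive joints. Perm1, a muscle regulator in the same pathway, fell at -2.12 ± 0.43 with 87.2 ± 30.4 CPM in anti-SIRPa joints, 28.04 ± 18.4 CPM in control-antibody arthritis joints and 122 ± 18.97 CPM in naive joints. The orphan receptor gene Esrrg fell at -1.07 ± 0.25 and was the one regulator that rose with anti-SIRPa against the control antibody (1.04 ± 0.25, adjusted p = 0.0403).

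Of 14 tested carriers and other mitochondrial genes 3 fell and 1 rose in control-antibody arthritis. Over all tested genes 4.45% fell and 5.87% rose in that comparison, and 1.7% fell and 1.59% rose with anti-SIRPa against the control antibody. These shares also stand beside the lists of cell types below. The single rise is near the share of all genes and is no result about the carriers as a group. Ckmt2, the mitochondrial creatine kinase of muscle, fell at -1.94 ± 0.37 (adjusted p = 0.0130), with 187 ± 29.03 CPM in anti-SIRPa joints, 71.6 ± 51.8 CPM in control-antibody arthritis joints and 274 ± 16.8 CPM in naive joints. Hspd1, a mitochondrial chaperone, rose at 0.69 ± 0.16 (adjusted p = 0.0221). The lists of cell types gave these values beside them: 8 of 10 slow muscle genes fell in control-antibody arthritis, at a median of -1.21, and 4 rose with anti-SIRPa, at 0.82. Of 22 skeletal muscle genes 3 fell, at a median of -0.54, and 0 rose with anti-SIRPa, at 0.46. Of 12 myeloid genes 8 rose in control-antibody arthritis, at a median of 1.55, and 0 were called with anti-SIRPa against the control antibody, at -0.59. No gene of the epidermis, erythroid or fat lists was called in control-antibody arthritis against naive joints, and 0, 1 and 2 genes of these lists rose with anti-SIRPa against the control antibody. The part of these cell types in the results was not tested.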

How the data were processed

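Total RNA of the paw joint was extracted with a Qiagen RNeasy kit and made into libraries with a stranded Illumina total RNA kit, per the labels' protocols, in 12 mice, 1 per library. The authors deposited raw read counts per gene, without scaling, in 12 sample files and a series table whose values were identical. The submitters' processing notes name build GRCm38. Aligner, counter, strand setting and the handling of multi-matching reads were not given in the sources used here, so overlapping and near-identical genes are uncertain. Of 52636 identifiers 52489 were found in GENCODE M21, and 0.0173% of counts had no symbol. The labels do not state separate litters or cages, so p-values measure the spread between these animals.

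The 95 genes, their grouping by complex and all other gene lists were chosen with earlier results of these data known. Genes were filtered with filterByExpr by group, scaled by TMM and fitted in edgeR 4.0.16 (R 4.3.3) with a robust quasi-likelihood model of all 12 libraries, 1 coefficient per group and no covariate. The biological coefficient of variation was 0.334. Adjusted p-values are Benjamini-Hochberg over 16674 genes, with a threshold of 0.05. CPM are given per mouse or as mean ± SD of 4 mice, and log2 fold changes with an SE. This SE was derived from the test, as the size of the fold change divided by the square root of the quasi-likelihood F statistic. CPM per kb uses the summed exon length of a gene. List means use log2 CPM with a prior count of 2. Isoform ratios use counts plus 0.5 and exact two-sided permutation tests over mice.

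Genes were named by a rule: isoform pairs, complex II, Cyc1 and Cycs, the 2 smallest p per complex and comparison, the highest and lowest fold change, calls against the main direction, and the 2 smallest p of each other list. Not all of them are reported. Genes outside the rule are named as well, some because they were called, and not each is marked as such. Receptor sums, joint markers and shared-sequence counts were added after the data had been seen.

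No 2 libraries of a group agreed within sampling noise (lowest chi-square per gene 8.95). Tested on simulated counts with 200 changed genes, the edgeR step recovered 36.7, 88.6 and 91.7% of 2-, 4- and 8-fold changes in 16298 genes for control-antibody arthritis against naive joints, and 41.9, 87.3 and 91.4% in 16270 genes for anti-SIRPa against the control antibody. Alternatives were DESeq2 1.42.0 and its size factors, limma-voom (limma 3.58.1), other filters and scalings, a fit without robust dispersion or of only the 2 groups compared, the replicate block, the muscle covariate, and leaving mice out. Floors cover counting error only, while SE and SD include the spread between mice.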

Additional observations from a re-analysis of the deposited data

Results flagged for a closer look

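In 9 of 141 groups of 4 values (6.38%) the highest or lowest mouse lay apart from its group by more than the 95% critical share of the range in Dixon's test, and chance flags about 1 in 20 groups. Anti-SIRPa 4 was the lowest of its group for the mean log2 CPM of complex II (6.76, gap 0.862 of the range), for that of ATP synthase (5.74, gap 0.855) and for Ndufs1 (116 CPM, gap 0.835). Anti-SIRPa 3 was the highest of its group for Uqcr10 (66.3 CPM, gap 0.885) and for Cox4i1 (270 CPM, gap 0.839). Control 1 was the highest of its group for Cox4i1 (272 CPM, gap 0.843) and for Ndufc2, an accessory subunit of complex I (44.7 CPM, gap 0.833), and control 3 was the lowest for Cox7a2l (29.5 CPM, gap 0.835). Naive 4 was the highest of its group for Atp5d (191 CPM, gap 0.889).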

How the results depend on the processing

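The number of respiratory chain genes called lower in control-antibody arthritis against naive joints, 31 as reported, was 50 with DESeq2, 15 with the replicate block, 5 with the muscle covariate, 3 with only those groups fitted, 0 without controls 2 and 4, and 1 without naive 4 and anti-SIRPa 2. The labels' replicate numbers did not pair the mice (correlations of same-numbered deviations from -0.80 to 0.21). Leaving out each mouse gave 3 to 60. The number called higher, 1 as reported, was 0 with no filter, the replicate block, the muscle covariate, only those groups fitted, either pair of mice left out, or only genes with at most 50% shared windows, and 0 to 1 with a mouse left out. With anti-SIRPa against the control antibody the 5 genes called higher became 38 with DESeq2, 11 with no filter, and 0 with the replicate block, with only those groups fitted, and with either pair of mice left out, and 0 to 62 with a mouse left out. DESeq2 called 1 gene lower there, against 0 as reported, and leaving out a mouse gave 0 to 1. Between anti-SIRPa and naive joints the counts were 0 in every setting run. The causes of these shifts were not tested, beyond fewer mice in the fits that leave mice out. Other size factors or scalings, stricter filtering, limma-voom and a fit without robust dispersion kept the count of lower calls at 27 to 38. Cyc1, Ndufb5 and Uqcr10 kept their call in control-antibody arthritis with each mouse left out. The other called respiratory chain and ATP synthase genes named by the rule lost it in at least 2 of 12 omissions. Called genes outside the rule, and called genes of the other lists such as Cox10 and Ckmt2, were not followed singly through these fits. No isoform ratio passed under any setting. Without anti-SIRPa 4 the anti-SIRPa minus naive log2 ratio changed sign for Cox6a2 over Cox6a1 (range -0.43 to 0.0773, as reported -0.24) and for Cox8b over Cox8a (range -0.33 to 0.0209, as reported -0.20). The replicate block, which the mouse numbers do not justify, left adjusted p values of 0.375 to 1 for the ratios.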

Other observations

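Among 13 genes of the same name rule that are not annotated as protein-coding, some had counts well above zero. Cox6c2 stood at 42.7 CPM in anti-SIRPa joints, 41.4 CPM in control-antibody arthritis joints and 41.2 CPM in naive joints on average, and Ndufb1-ps at 27.6, 19.0 and 26.0 CPM in anti-SIRPa, control-antibody arthritis and naive joints. Ndufa11b was lower in control-antibody arthritis than in naive joints (log2 -1.03, edgeR adjusted p = 0.0287), and Atp5k-ps2 was higher with anti-SIRPa than with the control antibody (log2 1.22, edgeR adjusted p = 0.0395). Since such copies share sequence with the coding genes, these values are uncertain.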
